A study of Drosophila melanogaster with 6 samples.

Results

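The transcripts of Mediator, TFIID and Integrator subunits were examined in Drosophila SL2 cells after depletion of Iswi. Members were the probe sets that the platform annotation assigns to exactly 1 gene symbol beginning with MED, Taf or IntS and a number. Of 18952 probe sets on the array, 48 met this rule, 22 for Mediator, 15 for TFIID and 11 for Integrator, and they covered 46 genes. A further 5 probe sets carried such a symbol together with that of another gene and were left out. The naming rule itself contains no measured value, although the set was proposed with earlier results of these data known.

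SL2 is an established line of Drosophila embryonic origin with features of haemocytes, the insect blood cells. Cells received 10 micrograms of double-stranded RNA (dsRNA), which triggers RNA interference, for 1 hour without serum, and were harvested 7 days later. The dsRNA targeted Iswi in 3 cultures (ISWI group) and GST, the control target, in the other 3 (GST group). The series design calls the replicates biological, and each gave 1 single-colour array of total RNA. No untreated cells were measured, so a response to the GST dsRNA itself would appear in every comparison with the opposite sign.

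Iswi encodes the ATPase of several nucleosome remodelling complexes, which slide nucleosomes along DNA. The 3 complexes examined act on RNA polymerase II at and near promoters. TFIID, made of the TATA-binding protein and TBP-associated factors (Tafs), recognises core promoters and starts assembly of the preinitiation complex. Mediator connects DNA-bound activators to the polymerase through a head, a middle and a tail joined by MED14, with a kinase module that binds reversibly. Integrator cleaves nascent RNA through the endonuclease IntS11, which forms the 3' ends of small nuclear RNAs and ends transcription soon after the promoter, and it carries the phosphatase PP2A.

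The targeted transcript was low where the labels place the knockdown. Iswi read 10.53, 10.54 and 10.47 on the GST arrays and 7.66, 7.74 and 7.16 on the ISWI arrays, in log2 units. The ISWI group held 12.6% of the GST level (log2 difference -2.99, standard error 0.14, limma adjusted p = 7.61e-06). Where in the gene the dsRNA lies is not stated, and a probe set inside it could also detect residual dsRNA. All 7 haemocyte markers (Hml, NimC1, eater, He, Pxn, srp and Sr-CI) were measured, with GST means of 11.20 to 13.68, and the 4 germline markers on the array lay at 2.17 to 2.48. Of the haemocyte markers 1 was higher and 3 were lower after Iswi dsRNA, 57.1% beside 41.1% of all genes. The log2 differences were 0.75 for eater, -0.86 for NimC1, -0.29 for Pxn and -0.28 for srp. The summed level of all 7 on the linear scale ran from 55800 to 57500 in the GST group. It ran from 52500 to 61200 in the ISWI group, and in such a sum shifts of opposite sign can cancel. The part of these shifts in the subunit values was not tested. Of the 6 arrays 2 stood apart in control probe sets. On GST replicate 1 the 3 probe sets for 18S ribosomal RNA read 14.17, 11.56 and 13.23, against 9.28 to 10.61, 6.74 to 7.63 and 8.90 to 9.67 on the other arrays. Without this array 5 of the 14 member genes described below as passing lost their call (MED18, MED28, Taf1, Taf12 and IntS2). Without GST replicate 2 or 3, which did not stand apart in this way, 5 and 6 did. Over all 6011 tested genes the number that passed also fell, from 2468 with all arrays to 1819 without GST replicate 1. On ISWI replicate 2, for eIF-4a the 3' probe set exceeded the 5' one by 2.26 log2 units, against 1.69 to 1.91 elsewhere, and for actin by 1.06 against 0.40 to 0.55.

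Differences of the tested subunits of the 3 complexes stayed below 1.5-fold, and within Mediator and TFIID they went in both directions. Of 22 Mediator genes 6 rose and 3 fell, of 12 tested TFIID genes 3 rose and 1 fell, and of 11 Integrator genes 1 rose and 0 fell. A gene entered the test if 3 or more of the 6 arrays read over 4 (log2) on its probe set, and it passed at a limma adjusted p of 0.05 over all tested probe sets. Across all 6011 tested genes 41.1% passed, 23.4% as higher and 17.6% as lower. The shares were 40.9% for Mediator, 33.3% for TFIID and 9.09% for Integrator. The Mediator share thus lay near that of all genes and the Integrator share below it, and no difference between complexes was tested.

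The sizes were modest. The largest rise was that of MED6, to 1.37-fold, and the deepest fall that of MED21, to 73.2% of the GST level. A change of at least 1.5-fold that passed was seen for 0 of the 45 tested members, against 12.1% of all genes. For 44 of the 45 the 95% interval of the difference lay within 1.5-fold either way, MED6 being the exception with an upper bound of 0.64 log2 units. The median size of the difference, in either direction, was 0.21 for Mediator, 0.19 for TFIID and 0.06 for Integrator, and 0.20 for all genes. Without ISWI replicate 2 the Integrator value was 0.11, beside 0.21, 0.20 and 0.19 for Mediator, TFIID and all genes. All 45 are shown in the plot of differences with intervals, and the sizes are set against all genes in the cumulative plot.

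**Figure D1:**
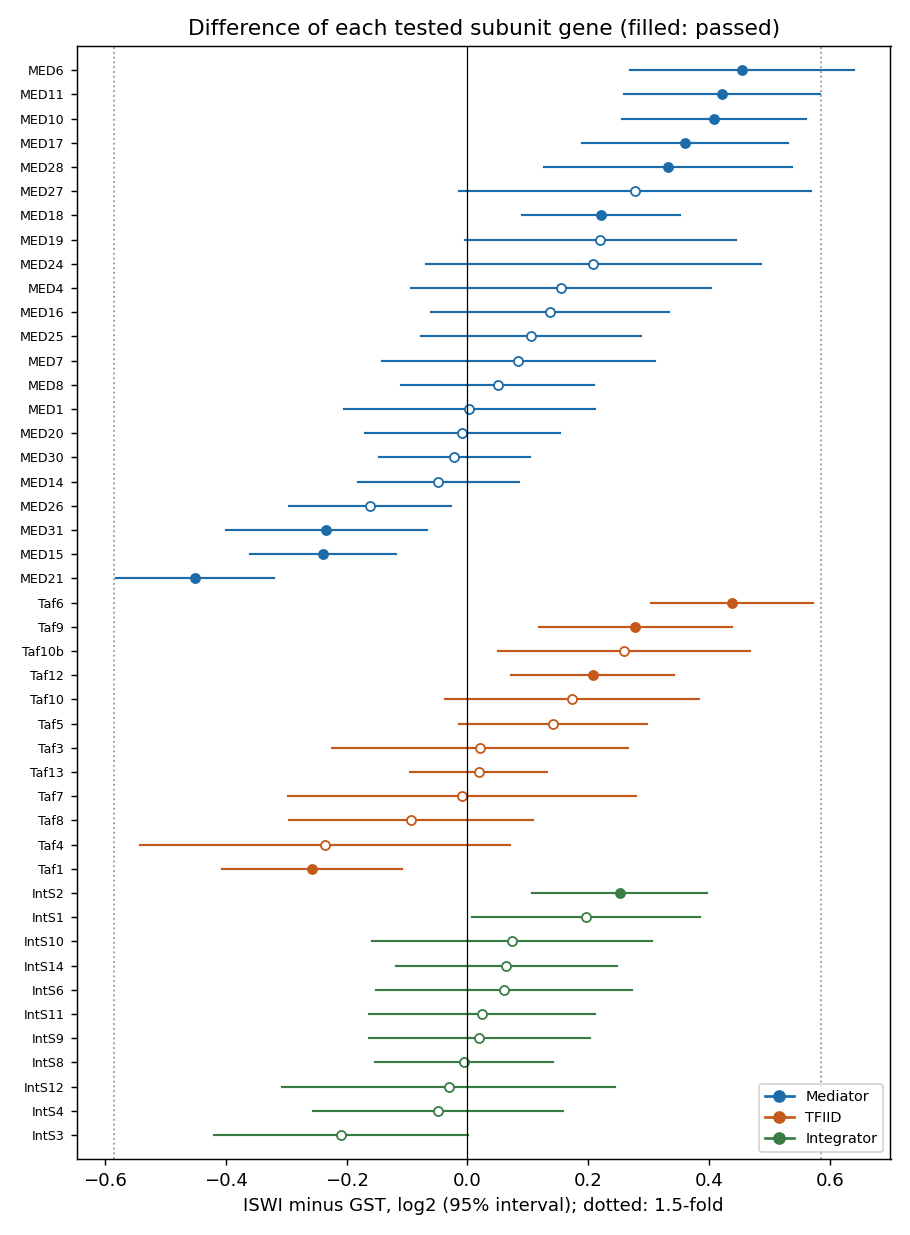
Difference between the ISWI and GST group means (log2, horizontal axis) for the 45 tested subunit genes, with 95% intervals from limma. Filled points passed the adjusted p of 0.05, and the dotted lines mark 1.5-fold. MED6 reaches 0.45, MED21 reaches -0.45, and 10 of the 11 Integrator genes are open points.

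**Figure D2:**
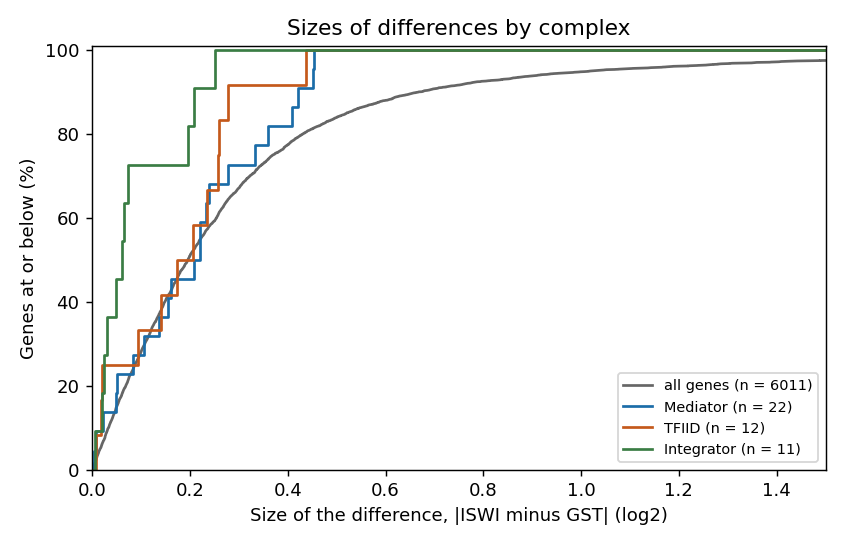
Cumulative share of genes (vertical axis, percent) against the size of the difference in either direction (log2, horizontal axis), for each complex and for all 6011 tested genes. The axis ends at 1.5, beyond which some of the other genes lie. The Integrator curve lies to the left, with a median of 0.06 against 0.20 for all genes.

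The head of Mediator, the part nearest to the polymerase, held most of the rises. Modules are given as in structures of mammalian Mediator. Of 6 head genes 4 rose and 0 fell, with a median log2 difference of 0.29, beside 0.03 for all genes. Over all genes 23.4% passed as higher and 17.6% as lower. The head was not alone in this, as the 3 upper tail genes had a median of 0.28, with 1 higher and 0 lower. The upper tail gene ix, outside the naming rule, rose by 0.36. Whether the Mediator modules differ was not tested.
MED6, a head subunit named from yeast, read 8.81, 8.96 and 8.89 on the GST arrays and 9.35, 9.45 and 9.22 on the ISWI arrays. Its lowest ISWI array lay above its highest GST array, and the difference was 0.45 (standard error 0.08, limma adjusted p = 0.00317).
MED11, a small head subunit, read 8.82, 8.82 and 8.75 in the GST group and 9.11, 9.29 and 9.25 in the ISWI group. These groups also lay apart, by a mean of 0.42 (standard error 0.07, limma adjusted p = 0.00254).
MED17, the scaffold of the head, was very even in the GST group at 8.54, 8.56 and 8.54, and rose to 8.79, 8.99 and 8.94. Its difference was 0.36 (standard error 0.07, limma adjusted p = 0.00622).

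MED18 rose less than these. It read 10.50, 10.47 and 10.50 on the GST arrays and 10.63, 10.72 and 10.78 on the ISWI arrays, a difference of 0.22 (limma adjusted p = 0.0163). This call was lost without GST replicate 1 (adjusted p = 0.0511), GST replicate 2 (0.0666) or GST replicate 3 (0.0501), with differences of 0.21 to 0.23. MED20, which forms a dimer with MED18 in yeast and human Mediator, read 8.53, 8.52 and 8.53 against 8.47, 8.47 and 8.62. Its groups overlapped and it did not pass, with a difference of -0.01 and a 95% interval from -0.17 to 0.15. MED8, the remaining head gene, gave 0.05 with an interval from -0.11 to 0.21.

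The middle module, which links head and tail and contacts the polymerase, contained movements in both directions. Of 8 genes 1 rose and 2 fell, beside 23.4% higher and 17.6% lower over all genes. The median log2 difference was 0.04.
MED10 read 10.41, 10.52 and 10.36 in the GST group and 10.75, 10.88 and 10.89 in the ISWI group, a rise of 0.41 (standard error 0.07, limma adjusted p = 0.00218).
MED21 went the other way. It read 10.50, 10.54 and 10.40 on the GST arrays and 10.01, 10.04 and 10.03 on the ISWI arrays. The 3 ISWI values lay within a few hundredths of each other and well below the GST values, and the difference was -0.45 (standard error 0.06, limma adjusted p = 0.000669), the smallest adjusted p of all members.
MED31, a small and conserved middle subunit, read 9.40, 9.51 and 9.59 against 9.34, 9.25 and 9.20. Its highest ISWI array lay close below its lowest GST array, and the difference of -0.23 passed at a limma adjusted p = 0.0341. The adjusted p was 0.106 and 0.121 without GST replicates 2 and 3 in turn, and 0.0671 and 0.0799 without ISWI replicates 2 and 3, so that the call was lost each time.

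The other middle genes did not pass. MED26, a subunit that in mammals recruits elongation factors, read 11.36, 11.30 and 11.23 against 11.18, 11.05 and 11.17. Its groups did not overlap, and at -0.16 it missed the threshold (limma adjusted p = 0.0572). It passed in 1 of 16 alternatives, with each array centred on its median, at -0.19 (adjusted p = 0.0464). In the others the adjusted p reached 0.186. MED19 read 9.24, 9.12 and 9.23 against 9.23, 9.43 and 9.59, so that ISWI replicate 1 lay among the GST arrays. Its difference of 0.22 gave a limma adjusted p = 0.105, and without ISWI replicate 1 it was 0.31 (adjusted p = 0.0210). MED19 passed in this 1 of 16 alternatives, with an adjusted p of up to 0.276 in the others. MED1, a contact of nuclear receptors in mammals, MED4 and MED7 gave 0.00, 0.16 and 0.08, and their groups overlapped.

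In the tail, the part that binds activators, single genes moved. MED15, a target of activators in yeast and flies, read 10.65, 10.61 and 10.67 in the GST group and 10.44, 10.35 and 10.42 in the ISWI group. All ISWI values were lower, and the fall was by 0.24 (standard error 0.05, limma adjusted p = 0.00843).
MED28, placed in the upper tail of mammalian Mediator, read 6.76, 6.82 and 6.76 against 7.16, 6.99 and 7.19. The groups lay apart with a difference of 0.33 (limma adjusted p = 0.0196), a call lost without any of the 3 GST replicates (adjusted p = 0.0671, 0.0548 and 0.0672 in order) or ISWI replicate 3 (0.0515).
MED27, of the same upper tail, read 7.32, 7.24 and 7.27 against 7.26, 7.68 and 7.71. As for MED19, ISWI replicate 1 lay among the GST values, and the other 2 ISWI arrays were high. The difference was 0.28 with all arrays (limma adjusted p = 0.116) and 0.42 without ISWI replicate 1 (adjusted p = 0.00654). MED27 passed in this 1 of 16 alternatives, with an adjusted p of up to 0.296 in the others.

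The remaining tail genes MED16, MED24, MED25 and MED30 had differences from -0.02 to 0.21 and did not pass. MED14, the backbone that joins all modules, gave -0.05 with a 95% interval from -0.18 to 0.09. Of the tested Mediator genes, 15 of 22 had a positive difference (68.2%, against 53.8% of all genes), and their median was 0.12.

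**Figure D3:**
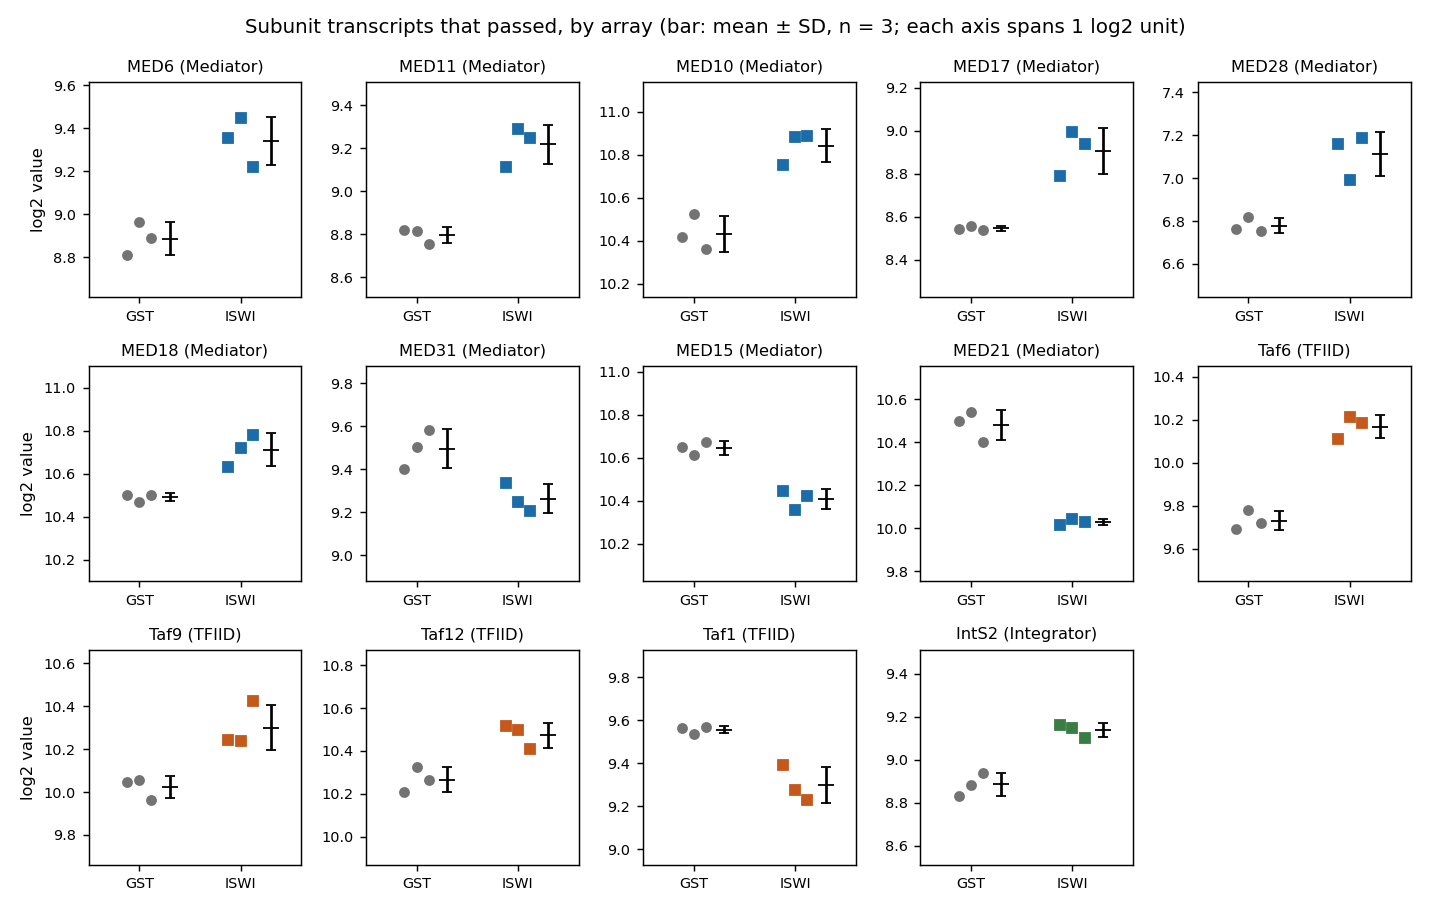
Log2 value on each array (points in order of replicate number) for the 14 subunit genes that passed, with the mean ± SD of each group beside them (n = 3). Every vertical axis spans 1 log2 unit. In all 14 genes the GST and ISWI arrays do not overlap, and the gap is narrowest for MED31. The genes were picked by the test on these same arrays, so this separation adds no support. Over all tested genes, passing or not, 54.9% do not overlap.

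In TFIID 9 of the 12 tested genes encode subunits with a histone fold, a domain by which Tafs pair with each other. Of these 9, 3 rose and 0 fell, and of the other 3 genes 0 rose and 1 fell, beside 23.4% higher and 17.6% lower over all genes. Whether these groups differ was not tested. Taf6 read 9.69, 9.78 and 9.72 on the GST arrays and 10.11, 10.21 and 10.18 on the ISWI arrays. The groups were well separated, with a difference of 0.44 (standard error 0.06, limma adjusted p = 0.000854).
Taf9, the histone-fold partner of Taf6 and also a subunit of the coactivator SAGA, read 10.05, 10.06 and 9.96 against 10.24, 10.24 and 10.42. It rose by 0.28 (standard error 0.07, limma adjusted p = 0.0146), a call lost without GST replicate 3 (0.25, adjusted p = 0.0602).
Taf12 read 10.21, 10.33 and 10.26 against 10.52, 10.50 and 10.41. Its rise of 0.21 passed narrowly (limma adjusted p = 0.0245). The adjusted p rose to 0.0950 when GST replicate 1 was left out and to 0.0731 for GST replicate 3. It was 0.0560 and 0.0547 without ISWI replicate 1 and 2 in turn, and 0.0503 with centred arrays.

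Taf1, the largest subunit and a scaffold of TFIID, fell. It read 9.56, 9.54 and 9.57 in the GST group and 9.39, 9.28 and 9.23 in the ISWI group, and the difference was -0.26 (standard error 0.06, limma adjusted p = 0.0151). Without GST replicate 1, 2 or 3 it was -0.25, -0.27 and -0.25, with adjusted p = 0.0560, 0.0510 and 0.0562. Without either GST replicate 1 or GST replicate 3, 2 of the 12 TFIID genes passed, both of them higher. For GST replicate 1 the number over all 6011 genes fell as well, from 2468 to 1819.

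Taf4, the histone-fold partner of Taf12, was measured by 2 probe sets. The brighter read 11.40, 11.50 and 11.24 against 11.44, 11.10 and 10.90, and the other 10.14, 10.00 and 10.05 against 10.03, 10.08 and 9.76. On both, the ISWI arrays were spread widely and overlapped the GST arrays. The differences were -0.24 and -0.11 (limma adjusted p = 0.191 and 0.394), and without ISWI replicate 1 the brighter gave -0.38 (adjusted p = 0.0195). Taf4 passed in this 1 of 16 alternatives, with an adjusted p of up to 0.477 in the others.

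The neighbouring genes Taf10 and Taf10b encode alternative forms of one subunit. Taf10b read 8.78, 8.76 and 8.95 against 8.998, 9.04 and 9.24. Its groups did not overlap, and at 0.26 it lay just beyond the threshold (limma adjusted p = 0.0515). It passed in 6 of 16 alternatives, among them the fits without GST replicate 3 (0.32, adjusted p = 0.0493) and without ISWI replicate 1 (0.31, adjusted p = 0.0436). Taf10 read 9.01, 8.87 and 8.86 against 9.06, 8.95 and 9.25, with overlapping groups and a difference of 0.17 (limma adjusted p = 0.165). Taf3, Taf5, Taf7, Taf8 and Taf13 gave differences from -0.09 to 0.14 and did not pass.

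Taf12L, a paralogue of Taf12 known from the testis, was the one member gene not tested. Its 2 probe sets read 2.11 to 2.13 and 2.52 to 2.57 over all 6 arrays, in the range of the germline markers. Of the other testis paralogues, can, nht and sa had GST means of 2.25 to 2.29 and were not tested either. The paralogue of Taf6, mia, was present at 7.18 ± 0.07 and rose to 7.43 ± 0.08 (SD, n = 3; limma adjusted p = 0.0468).

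Integrator had the lowest median size of difference of the 3 complexes, 0.06 with all arrays and 0.11 without ISWI replicate 2. The transcript that passed was IntS2, a scaffold subunit, which read 8.83, 8.88 and 8.94 on the GST arrays and 9.16, 9.15 and 9.10 on the ISWI arrays. The groups lay apart by 0.25 (standard error 0.06, limma adjusted p = 0.0146). Without GST replicate 1 or GST replicate 2 the difference was 0.23 and 0.25, the adjusted p was 0.0636 and 0.0584, and 0 Integrator genes passed. In the fit without GST replicate 1, 1819 of all 6011 genes passed, against 2468 with all arrays. At an unadjusted limma p of 0.05, 2 of the 11 genes passed with all arrays, IntS2 and IntS1, against 3016 of all 6011 genes.

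The endonuclease and its partners did not pass. IntS11, the endonuclease, read 10.999, 11.13 and 11.10 in the GST group and 11.20, 10.93 and 11.17 in the ISWI group. IntS9, its inactive partner, read 8.36, 8.28 and 8.39 against 8.27, 8.33 and 8.48. Both overlapped between groups, with differences of 0.02 and 0.02 and 95% intervals from -0.16 to 0.21 and from -0.16 to 0.20.
IntS4, which holds this pair, gave -0.05 (interval from -0.26 to 0.16). IntS6 and IntS8, which bind PP2A, gave 0.06 and -0.01, with intervals from -0.15 to 0.27 and from -0.15 to 0.14. The signs of these 5 values were not stable, as each turned in at least 1 alternative.

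IntS1, the largest Integrator subunit, read 8.94, 8.87 and 9.09 against 9.08, 9.15 and 9.26. ISWI replicate 1 lay just below GST replicate 3, and the difference of 0.20 did not pass (limma adjusted p = 0.0891).
IntS3, also part of a human single-stranded DNA binding complex, read 9.70, 9.81 and 9.75 against 9.67, 9.61 and 9.35. All ISWI values were lower, with ISWI replicate 3 far below the rest, and the difference of -0.21 did not pass (limma adjusted p = 0.102). IntS10, IntS12 and IntS14 gave 0.07, -0.03 and 0.06. IntS12, which carries a PHD finger, was spread from 6.76 to 7.20 over the ISWI arrays and covered the whole GST range of 6.98 to 7.05.

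The GST and ISWI arrays did not overlap for 11 of 22 Mediator genes, 6 of 12 TFIID genes and 2 of 11 Integrator genes, against 54.9% of all genes. The median deviation of the Mediator genes from their GST means was 0.04, 0.11 and 0.18 on ISWI replicates 1, 2 and 3. For TFIID it was 0.09, 0.17 and 0.11, and for Integrator 0.10, -0.02 and 0.10. Over all genes it was 0.00, 0.05 and 0.03. The Mediator and TFIID medians were above those of all genes on each ISWI array, and the Integrator median was below on ISWI replicate 2, the array with the higher 3' minus 5' differences. Without this array 8 Mediator, 3 TFIID and 1 Integrator genes passed, MED31 and Taf12 losing their calls. The number of all genes that passed also moved when an array was left out. These counts are therefore not to be set against the 41.1% with all arrays. Without ISWI replicate 2 the median difference was 0.13 for Mediator, 0.09 for TFIID and 0.10 for Integrator, beside 0.02 for all genes. The Integrator median over the group means, 0.02, turned to -0.01 when arrays were centred on their medians, so it has no settled sign.

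**Figure D4:**
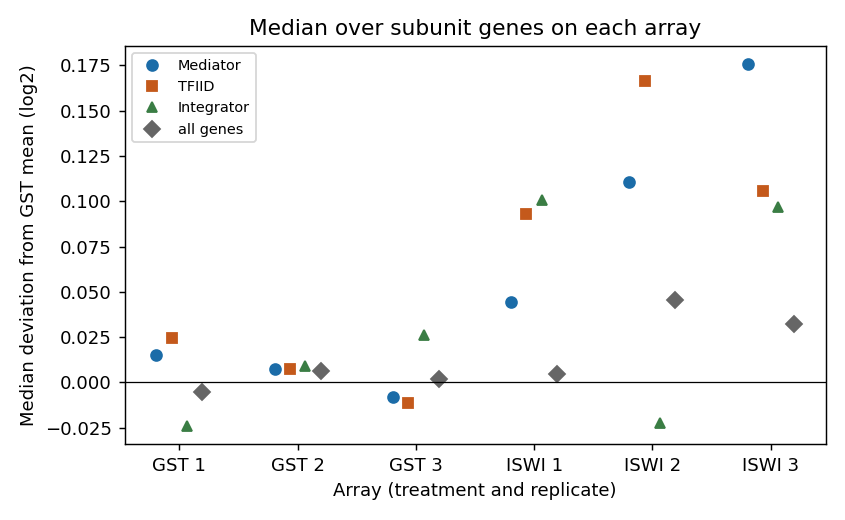
Median deviation from the GST mean of each gene (log2, vertical axis) on each of the 6 arrays, over 22 Mediator, 12 TFIID, 11 Integrator and all 6011 tested genes. On the ISWI arrays Mediator reaches 0.18 and TFIID 0.17, while Integrator falls to -0.02 on replicate 2.

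The median SD between replicates was 0.04 in the GST group and 0.09 in the ISWI group for Mediator, 0.07 and 0.10 for TFIID, and 0.05 and 0.12 for Integrator. For all genes it was 0.07 and 0.11.

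Subunits known to contact each other were compared as log2 ratios within each array. Such a ratio cancels a constant shift of an array, though not a scaling that depends on signal level. The 8 pairs are known partners or neighbours but were picked after the values had been seen, so their ratios are given as a description, with no test.
The ratio of MED7 to MED21 was 0.54 higher in the ISWI group, and that of MED18 to MED20 was 0.23 higher. Taf4 to Taf12 was lower (difference of log2 ratios -0.44), with ratios of -0.19, -0.51 and -0.62 relative to the GST mean on the 3 ISWI arrays.
For Taf6 and Taf9, which both rose, the ratio differed by 0.16, and relative to the GST mean the highest GST ratio (0.049) nearly touched the lowest ISWI ratio (0.054). The ratio of MED7 to MED31 differed by 0.32 and that of Taf8 to Taf10 by -0.27. Taf10b, the alternative form of Taf10, was not among the pairs. Ratios that overlapped were Taf3 to Taf10 (-0.15) and IntS9 to IntS11 (-0.00).

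Subunits of these complexes whose symbols fall outside the naming rule were taken from a list of known genes. Of 9 such genes 1 rose and 0 fell (11.1%), beside 41.1% of all genes, 23.4% as higher and 17.6% as lower. The gene ix (intersex), the fly MED29 of the upper tail, read 6.77, 6.92 and 6.98 against 7.22, 7.28 and 7.25, a rise of 0.36 (limma adjusted p = 0.0136).
The 4 genes of the Mediator kinase module, Cdk8, CycC, kto (Med12) and skd (Med13), gave 0.04, 0.13, -0.19 and 0.06 and did not pass. Tbp, the TATA-binding protein itself, gave 0.05. The Integrator genes omd, defl and asun gave 0.25, 0.17 and 0.12, also without passing.

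Among partners at the promoter, counts also lay mostly below the 41.1% of all genes. Of 16 general transcription factor genes 2 rose and 1 fell, of 6 RNA polymerase II genes 1 rose and 1 fell, and of 7 pausing and elongation genes 2 rose and 0 fell. The other 6 of the 12 listed polymerase II genes, among them Polr2A and Polr2B for the largest subunits, had no probe set matched under 1 symbol and were not analysed here. The single large change was in TFIIF, which escorts the polymerase to the promoter. TfIIFalpha read 9.53, 9.62 and 9.78 on the GST arrays and 7.93, 7.99 and 7.68 on the ISWI arrays, a difference of -1.78 (standard error 0.10, limma adjusted p = 1.93e-05). Its partner gene TfIIFbeta read 9.59, 9.74 and 9.58 against 9.65, 9.71 and 9.63 and gave 0.03. TfIIFalpha thus changed far beyond any of the subunits above, while its partner had overlapping groups.

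Smaller changes were seen for TfIIEbeta of TFIIE, up by 0.47, and for CycH, the cyclin of the TFIIH kinase, up by 0.30 (limma adjusted p = 0.00116 and 0.00695). The polymerase subunit genes Polr2J and Polr2L gave 0.15 and -0.18 (limma adjusted p = 0.0365 and 0.0321). NELF-B, of the pausing factor NELF, rose by 0.48 and spt4, of the factor DSIF, by 0.41 (limma adjusted p = 0.00104 and 0.0038).

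SAGA, the coactivator that shares Taf subunits with TFIID, had 7 of 11 genes past the test, 5 higher and 2 lower. This was 63.6%, beside 41.1% of all genes. The deubiquitylase gene not (non-stop) rose from 8.90 ± 0.05 to 9.55 ± 0.04 (SD, n = 3), and its module partners Sgf11 and e(y)2 rose by 0.34 and 0.30. Ada2b and Spt20 fell, from 8.82 ± 0.05 to 8.46 ± 0.05 and from 5.47 ± 0.13 to 4.62 ± 0.22 (SD, n = 3). The limma adjusted p of the genes just named ran from 0.000185 for not to 0.018 for e(y)2. Sgf29 and Ada3 also passed, with rises of 0.41 and 0.23 (limma adjusted p = 0.0217 and 0.0273). The share of SAGA genes was not tested against that of the 3 complexes.

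**Figure D5:**
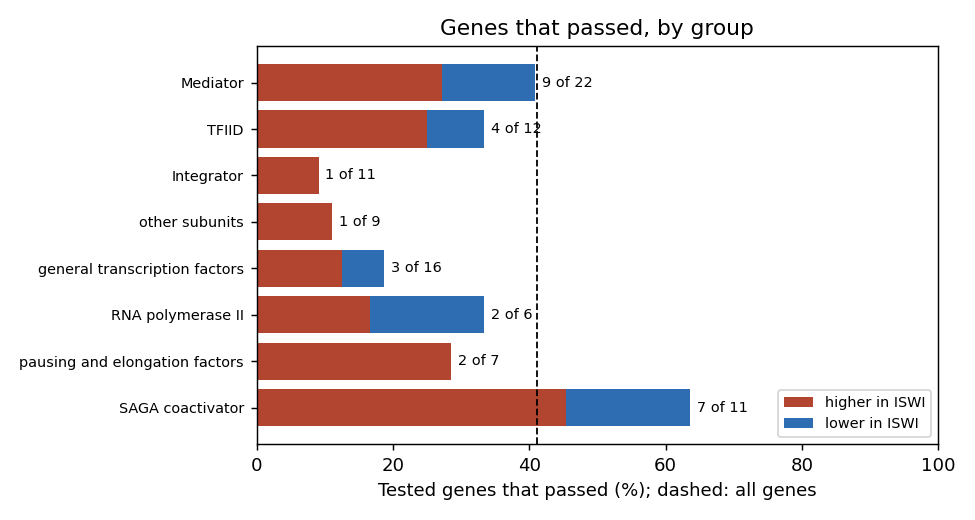
Share of tested genes that passed (percent, horizontal axis), split into higher and lower in the ISWI group, for the 3 complexes and 5 lists of related genes. Counts stand beside the bars, and the dashed line marks the 41.1% of all genes. Integrator has 1 of 11, and SAGA, with 7 of 11, lies above the line.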

How the data were processed

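The values used were the authors' deposited log2 values per probe set, 1 column per array. GCRMA is named per the submitters' processing notes. It corrects background, normalizes by quantiles and summarises probes, and so removes any global shift of RNA content. The log2 scale was read from the range of the values. Sample titles assign the arrays to groups, and the GCRMA version is not given in the sources used here. Of 18769 probe sets without controls, 13647 had 1 symbol, and current names came from a RefSeq gene table of Release 6. Probe sets above 4 on at least 3 of 6 arrays (7390) were fitted by linear models with an intensity trend in limma 3.58.1 (R 4.3.3), as a two-sided test at 0.05 after Benjamini-Hochberg adjustment across these probe sets. Where a gene had several tested probe sets, the brightest represented it. The fit was tested on simulated data.

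Values of different probe sets are not comparable in level, and fewer cells of a type and less RNA per cell cannot be told apart in bulk RNA. Probe sets of MED6, MED26, MED31, Taf4, Taf12 and IntS6 end in _s_at, which in Affymetrix naming can match several transcripts. The rule for naming genes took Iswi, every member that passed, the highest and lowest tested member of each complex, members not tested, members whose probe sets disagree, and up to 4 passing genes of each list. Other members and list genes were added after their values were seen. Members and lists were chosen with earlier results of these data known, and the pairs after the member values were seen. Alternatives were other filters, scalings, variance moderation, array weights, a replicate block, a stricter threshold, the other probe set, current symbols and leaving out each array. The number of arrays limits the precision.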

Additional observations from a re-analysis of the deposited data

How the results depend on the processing

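In the 16 alternatives that give values per gene, Iswi, MED6, MED10, MED11, MED15, MED17, MED21 and Taf6 kept their direction and passed, Iswi at -3.10 to -2.81 on the log2 scale. Leaving out 1 array gave 1739 to 2505 genes past the test in all, 6 to 11 for Mediator, 2 to 5 for TFIID and 0 to 1 for Integrator, and medians of 0.09 to 0.16, 0.07 to 0.11 and 0.0017 to 0.10. At an adjusted p of 0.01, 1456 genes passed, with 6 of Mediator, 1 of TFIID and 0 of Integrator. The TFIID median was 0.020 with no filter, which adds Taf12L, and 0.14 with a filter at 6, which drops Taf7. Without the filter MED28, MED31 and Taf12 lost their calls (adjusted p = 0.0580, 0.0832 and 0.0558). Centred arrays gave 10 Mediator and 3 TFIID genes. Same-numbered arrays did not deviate together (r = -0.18, 0.12 and 0.06 across probe sets). With the replicate block 2310 genes passed, with 8 of Mediator, 5 of TFIID and 1 of Integrator. MED31 lost its call there (adjusted p = 0.0724) and Taf10b gained one (0.0301). Taf10b also passed with the filter at 6 (0.0429), robust variance moderation (0.0466) and array weights (0.0403). The median size of the difference with each array left out, an alternative added after seeing the data, was 0.17 to 0.23 for Mediator, 0.13 to 0.20 for TFIID, 0.043 to 0.11 for Integrator and 0.19 to 0.21 for all genes.

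The sign turned in some alternative for 12 genes, 0 of which passed in any fit where it turned. Centred arrays turned IntS11 (-0.0062), IntS9 (-0.011), MED1 (-0.027), Taf13 (-0.012) and Taf3 (-0.010). Repeated quantile normalization turned MED1 (-0.039) and Taf3 (-0.012), and array weights turned Taf7 (0.0024). Leaving out 1 array gave -0.025 to 0.11 for IntS11, -0.039 to 0.064 for IntS9, -0.14 to 0.081 for IntS12, -0.12 to 0.0037 for IntS4, -0.018 to 0.13 for IntS6 and -0.019 to 0.017 for IntS8. It gave -0.044 to 0.087 for MED1, -0.057 to 0.016 for MED20, -0.056 to 0.0093 for MED30, -0.0073 to 0.041 for Taf13, -0.063 to 0.14 for Taf3 and -0.099 to 0.050 for Taf7. The cause of these shifts was not tested beyond the genes added or dropped.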
